A study of Homo sapiens with 66 samples.

Results

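Cytosolic RNA was compared with total RNA of THP-1 cells in which ADAR and HNRNPC were both targeted. The comparison held 4 libraries (2 cytosolic and 2 total RNA, chosen by their labels) of 66 in the series and of 18 in its second RNA-seq study. THP-1 cells derive from a human monocytic leukemia, and the second study used 1 single-cell clone that was wild type apart from a Cas9 transgene. All of its cells received guide RNAs (gRNAs) by nucleofection, were kept in medium without a further treatment, and were harvested on day 4. Doubly targeted cells received gRNA hnRNPC.1 together with ADAR.1. The other gRNA groups paired one of these with the nontarget gRNA NTC1 (hnRNPC-targeted and ADAR-targeted cells) or received NTC1 without a targeting gRNA (CTRL cells), also with 2 cytosolic and 2 total RNA libraries each. The labels name no cloning after nucleofection, so a library may hold cells with and without a disrupted allele. Cytosolic RNA was what 300 µg/ml digitonin released from the cells, and the insoluble rest held nuclei and mitochondria. Total RNA came from whole cells. The insoluble fraction itself was sequenced in 2 libraries of hnRNPC-targeted cells, which entered the shared model and no comparison here. Per the study, the 2 replicates of a group come from independent experiments, whereas no label ties a replicate number to an experiment.

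ADAR is a deaminase that converts adenosine to inosine (A-to-I editing) in double-stranded RNA, much of which forms between inverted Alu repeats in introns and 3′ UTRs. hnRNPC is a nuclear protein that binds uridine tracts, including those of antisense Alu repeats, and keeps cryptic Alu exons out of mRNA. Unedited double-stranded RNA that reaches the cytosol can be bound there by MDA5 (encoded by IFIH1), a sensor that starts the type I interferon response. Digitonin opens the cholesterol-rich plasma membrane and leaves most inner membranes intact, so mRNA on free ribosomes is released and mRNA translated at the endoplasmic reticulum (ER) is largely kept in the pellet.

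The deposited gene counts summed to 52392587 and 49666958 in total RNA replicates 1 and 2, and to 59142797 and 67439531 in cytosolic RNA replicates 1 and 2. Libraries of the second study ranged from 49666958 to 73873756. The first principal component of all 18 libraries held 57.1% of the variance and separated the fractions, and the second (19.5%) separated libraries with and without the ADAR gRNA. Of 10 monocytic markers, 8 were tested, and their levels summed to 599 CPM (read counts scaled to a common library size) in both total RNA libraries and to 407 and 415 in cytosolic RNA. The macrophage marker CD68 reached at most 0.0167 CPM. Markers of other cell types (5 genes) summed to 2.61 to 3.93 CPM.

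The gRNA against HNRNPC is shown with its PAM, the NGG motif that Cas9 needs, in capitals. It matched the plus strand of chr14:21702173-21702192 (GRCh37), within a coding exon of HNRNPC, a gene of the minus strand.
hnRNPC.1: ctcattaacatactgaacgaAGG

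HNRNPC mRNA was at 471 and 378 CPM in total RNA of doubly targeted cells, and at 909.7 and 581 CPM in total RNA of CTRL cells. In cytosolic RNA it was at 701 and 651 CPM, against 1024 and 869.7 CPM in CTRL cells. Both fractions were thus lower than in CTRL cells without overlap of the libraries. ADAR mRNA was at 883 and 694 CPM in total and at 849.8 and 674 CPM in cytosolic RNA, which overlap each other. CTRL cells had 858 and 869 CPM of ADAR in total RNA and 1166 and 1162 CPM in cytosolic RNA. The ADAR level therefore overlapped that of CTRL cells in total RNA and was lower without overlap in cytosolic RNA. As the mRNA levels of the fractions differed in this, editing was used as a further check of this gRNA. Over 19645 sites in editing-cluster-rich regions (ECRs), 7.15 and 6.31% of the reads were edited in total RNA of doubly targeted cells, against 20.3 and 18.6% in CTRL cells. The corresponding 95% Wilson intervals were 7.09 to 7.21% and 6.25 to 6.36% in doubly targeted cells. Such intervals cover counting error only.

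The composition of both fractions was read from RNAs whose place in the cell is known. MALAT1, a long noncoding RNA of nuclear speckles (chr11:65265111-65275544), had 1817 and 2219 CPM in total RNA and 377 and 423 CPM in cytosolic RNA. Its log2 ratio of cytosolic to total RNA was −2.33 (standard error 0.30, edgeR adjusted p = 2.24e-05). NEAT1, the scaffold RNA of paraspeckles (chr11:65190245-65213011), had 186 and 226 CPM in total and 40.9 and 50.6 CPM in cytosolic RNA, a log2 ratio of −2.17 (standard error 0.28, edgeR adjusted p = 2.71e-05). Transcripts of the mitochondrial genome fell most. MT-ND1, a subunit of respiratory complex I, had 68.2 and 102 CPM in total RNA and 1.24 and 1.67 CPM in cytosolic RNA (log2 ratio −5.87, standard error 0.59, edgeR adjusted p = 1.84e-06). MT-CO1, of cytochrome c oxidase, had 1597 and 1963 CPM in total and 17.1 and 27.1 CPM in cytosolic RNA, a log2 ratio of −6.33. The mitochondrially encoded share of all gene counts was 0.431 and 0.577% in total RNA and 0.00585 and 0.00938% in cytosolic RNA. ACTB, the mRNA of cytoplasmic actin, had 5306 and 5416 CPM in total and 7685 and 7903 CPM in cytosolic RNA. Its log2 ratio of 0.54 (standard error 0.13, edgeR adjusted p = 0.00301) was below the fold required for a call. The libraries of the 2 fractions did not overlap for any of these 5 RNAs.

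**Figure D1:**
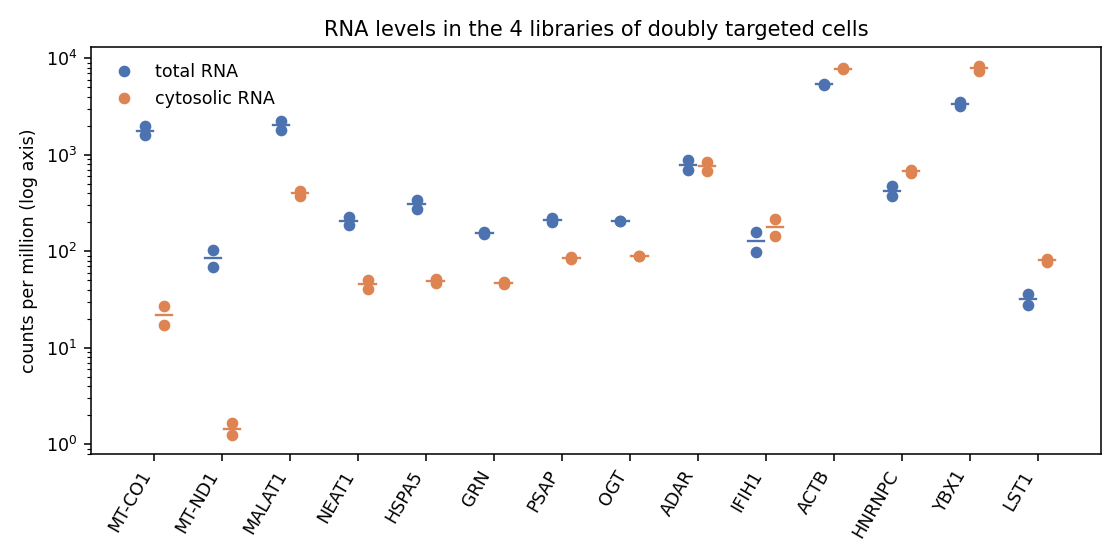
CPM (scaled read counts, log axis) of 14 RNAs in the 2 total and 2 cytosolic RNA libraries of doubly targeted cells. Each point is 1 library and each short line is the mean of a fraction. MT-CO1 stands between 1597 and 1963 in total RNA and between 17.1 and 27.1 in cytosolic RNA, whereas the points of ADAR overlap between the fractions.

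Calls required that cytosolic and total RNA differed by 1 or more on the log2 scale, with an adjusted p no higher than 0.05 in edgeR's quasi-likelihood test. Among 13637 tested genes, 61 were higher (0.447%) and 804 were lower (5.9%) in cytosolic than in total RNA, 6.34% in all. The 2 fractions did not overlap in any of the 865 called genes. With 2 libraries per fraction, the rule for a call largely fixes this in advance, so it adds no evidence for the calls. The count of higher genes rested on single libraries: it was 206 without total RNA replicate 1 and 93 without cytosolic RNA replicate 1. Changes below the fold threshold were common, since 5161 genes were higher and 2319 lower at an adjusted p of at most 0.05. CPM values are shares of a library, so the ratio of all genes depends on the scaling. The median log2 ratio of tested genes was 0.24 with TMM scaling and −0.30 when the libraries were scaled on 26 soluble housekeeping mRNAs, a shift of −0.53. With that scaling 1 gene was higher and 2031 were lower (14.9%). Amounts of RNA per cell cannot be told apart from the composition of a library here.

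The kinds of RNA differed in how many of their members were lower. Of 11437 protein-coding genes, 26 were higher and 591 were lower, with a median log2 ratio of 0.23. Among 26 snoRNAs, which guide the modification of ribosomal RNA in the nucleolus, 15 were lower and the median was −1.31. Of 797 long noncoding RNAs, 102 were lower and 8 were higher (median 0.03). Among 745 processed pseudogenes, which share sequence with their parent mRNAs so that reads cannot be assigned with certainty, 22 were higher and 18 were lower, with a median of 0.50. Protein-coding genes that were higher had a median exonic length of 2602 bases, those of the nuclear genome that were lower had 6522, and all tested protein-coding genes had 5571.

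The largest log2 ratio among well-expressed protein-coding genes was that of LST1, a leukocyte-specific transcript of the MHC region (chr6:31553901-31556686). It had 35.9 and 28.0 CPM in total and 78.0 and 83.7 CPM in cytosolic RNA, a log2 ratio of 1.34 (standard error 0.17, edgeR adjusted p = 2.5e-05). YBX1, a cold-shock domain protein that coats mRNA (chr1:43148089-43169476), had 3496 and 3211 CPM in total and 7440 and 8332 CPM in cytosolic RNA, a log2 ratio of 1.23 (standard error 0.18, edgeR adjusted p = 0.000101). TCEAL4 (1.25) lay between these, and GNG4 (1.16), NSRP1 (1.16), and PSMB9 (1.14) followed, of which PSMB9, an interferon-inducible proteasome subunit, overlaps PSMB8 and TAP1 and was no longer called without total RNA replicate 1 (0.99). None of these 6 genes was called under the housekeeping scaling, where LST1 had a log2 ratio of 0.81 and YBX1 0.70. The 6 lowest protein-coding genes at the same expression limit (average log2 CPM of 3 or more) were transcripts of the mitochondrial genome: MT-CO1, MT-CO3, MT-ND3, MT-CO2, MT-ND1, and MT-CYB. Outside it, within the same limits and picked after the values were seen, the lowest were CELSR2 (−3.07), MAMDC4 (−2.84), HSPA5 (−2.65), PLEC (−2.60), ABCA7 (−2.59), and AGRN (−2.55). CELSR2, an adhesion receptor of the cadherin superfamily, had 12.6 and 15.6 CPM in total and 1.37 and 1.97 CPM in cytosolic RNA.

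All 14 tested mitochondrially encoded RNAs of 15 listed were lower, with log2 ratios from −6.57 (MT-ND6) to −3.87 (MT-RNR1) and a median of −5.79. Their summed level was 3817 and 4810 CPM in total and 57.8 and 95.1 CPM in cytosolic RNA. Nuclear-encoded mRNAs of mitochondrial proteins, which are translated outside the organelle, did not show this: 0 of 38 were called in edgeR's test, and their median was 0.48. Over all tested genes 6.34% were called and the median was 0.24. ATP5MC2, a subunit of ATP synthase, had a log2 ratio of 0.77 and SDHA, of respiratory complex II, −0.42.

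Messages of the ER lumen and membrane were lower in part. Of 34 ER chaperone and translocon mRNAs, 9 were lower and 0 were higher, with a median of −0.51. Of all tested genes 5.9% were lower and 0.447% higher. HSPA5 (BiP), the Hsp70 chaperone of the ER lumen (chr9:127997132-128003661), had 272 and 342 CPM in total and 46.4 and 51.1 CPM in cytosolic RNA. Its log2 ratio was −2.65 (standard error 0.28, edgeR adjusted p = 3.1e-06). HYOU1 (−1.43), a stress-induced ER chaperone, the disulfide isomerases PDIA4 (−1.35), PDIA3 (−1.30), and P4HB (−1.17), HSP90B1 (−1.24), and SEC61A1 (−1.10), the pore of the translocon, were also lower. So were RPN2 (−1.31) and STT3A (−1.01), subunits of the oligosaccharyltransferase. At the other end, the small tail-anchored translocon subunits SEC61B and SEC61G had log2 ratios of 0.74 and 0.69, which were below the fold threshold.

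Of 26 lysosomal and granule protein mRNAs tested, 6 were lower and 0 were higher, with a median of −0.69, and none had a ratio above 0. The share of lower genes among all tested was 5.9%, here and for the next list. GRN, encoding progranulin (chr17:42422614-42430474), had 152 and 159 CPM in total and 46.0 and 48.2 CPM in cytosolic RNA (log2 ratio −1.72, standard error 0.11, edgeR adjusted p = 2.42e-08). PSAP, the precursor of the saposins, had 223 and 203 CPM in total and 83.6 and 87.3 CPM in cytosolic RNA, a log2 ratio of −1.32. SRGN, the granule proteoglycan serglycin, was also lower (−1.16), as were LYZ (−1.04), the lysosomal membrane protein LAMP2 (−1.04), and neutrophil elastase ELANE (−1.02). Among 27 plasma membrane receptor and transporter mRNAs, 6 were lower and 0 were higher (median −0.84). NOTCH2, a receptor of cell-to-cell signaling, had 237 and 235 CPM in total and 50.6 and 57.7 CPM in cytosolic RNA (log2 ratio −2.12, standard error 0.17, edgeR adjusted p = 2.65e-07). TLR2, a receptor for bacterial lipoproteins, fell from 67.1 and 60.6 CPM to 19.94 and 20.04 CPM (−1.68), and ITGA5 (−1.58), CSF1R (−1.16), and SLC2A1 (−1.12) were lower as well.

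Of 11 secreted cytokine and chemokine mRNAs, 0 were called in edgeR's test, and the median was 0.50 (range −0.63 to 0.87). Of all tested genes 6.34% were called, so 0 among so few genes is near that share. CXCL10, an interferon-induced chemokine, had 60.2 and 27.3 CPM in total and 107 and 53.4 CPM in cytosolic RNA, which overlap (log2 ratio 0.87, standard error 0.38, edgeR adjusted p = 0.0626). Replicate 1 was above replicate 2 in both fractions, and cytosolic was above total RNA within each replicate number. The fit did not use the numbers as pairs. IL1B, which lacks a signal peptide, had 10.8 and 8.14 CPM in total and 17.1 and 16.3 CPM in cytosolic RNA (0.82, standard error 0.25, edgeR adjusted p = 0.0123).

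**Figure D2:**
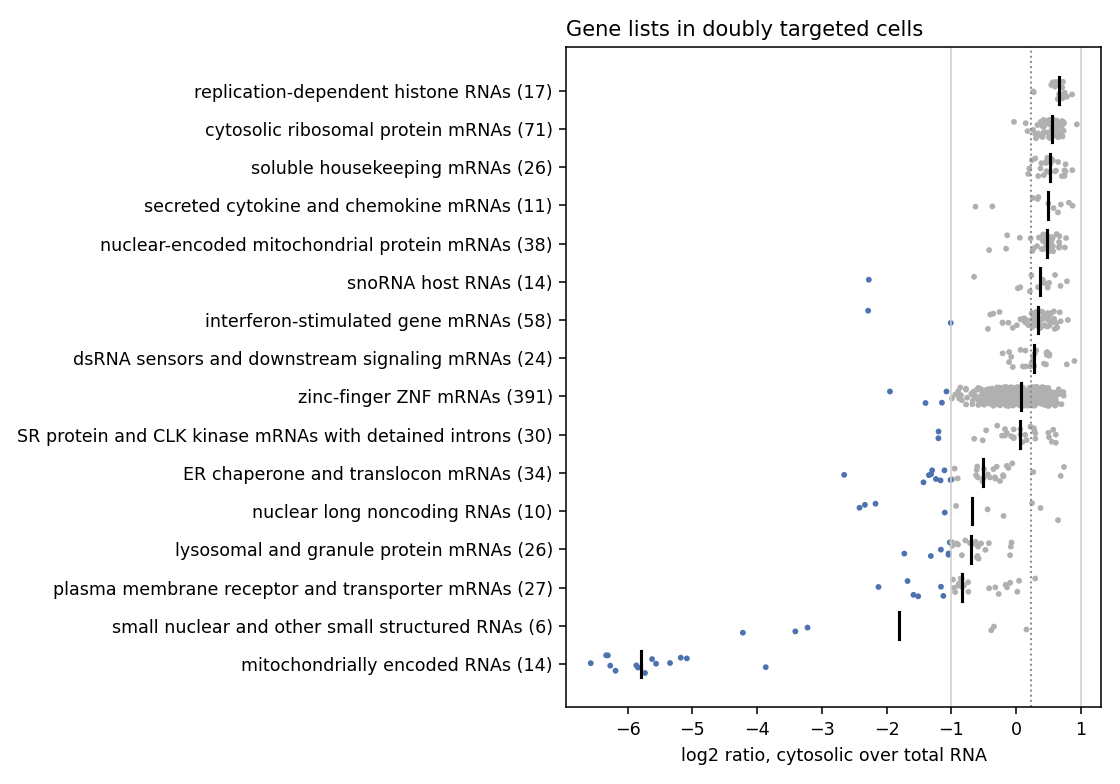
Log2 ratio of cytosolic to total RNA in doubly targeted cells for the tested members of 16 gene lists (number tested in parentheses). Each point is 1 gene, blue where called lower and gray where not called, the black bar is the median of the list, the dotted line the median of all tested genes (0.24), and the gray lines mark log2 ratios of −1 and 1. Mitochondrially encoded RNAs lie between −6.57 and −3.87, and ribosomal protein mRNAs between −0.03 and 0.94.

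Of 58 tested interferon-stimulated mRNAs, 2 were lower and 0 were higher, where 5.9% of all tested genes were lower and 0.447% higher. The median log2 ratio was 0.33, beside 0.24 for all tested genes. The 58 mRNAs summed to 12429 and 8334 CPM in total RNA and to 14213 and 10112 CPM in cytosolic RNA, with replicate 1 above replicate 2 in both fractions. Within each replicate number the cytosolic sum was the higher one. IRF9, the DNA-binding subunit of the ISGF3 complex, had 11.3 and 9.98 CPM in total and 2.42 and 1.95 CPM in cytosolic RNA (log2 ratio −2.28, standard error 0.25, edgeR adjusted p = 4.35e-06). The IRF9 interval (chr14:24630443-24637252) overlaps another tested gene, and reads of the 2 genes may not be told apart. RNF213, a giant ubiquitin ligase, had 694 and 544 CPM in total and 341 and 275 CPM in cytosolic RNA (log2 ratio −1.01). That call was lost without total RNA replicate 1 (−0.82) or cytosolic RNA replicate 2 (−0.86). UBE2L6, the conjugating enzyme of ISG15, had 59.9 and 30.7 CPM in total and 96.9 and 61.0 CPM in cytosolic RNA, a log2 ratio of 0.80 that was not called (edgeR adjusted p = 0.0567).

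In a second list, drawn from the first RNA-seq study of the series (a STING-deficient clone), 159 genes (1.21% of those tested there) were called higher after IFN-α. Of these, 153 were tested here, and 14 were lower and 0 higher in cytosolic RNA, beside 5.9% lower among all tested genes, with a median log2 ratio of 0.28. Of the same genes, 26 were lower in CTRL, 19 in ADAR-targeted, and 29 in hnRNPC-targeted cells. In these groups 10.3, 6.48, and 11% of all tested genes were lower. The ratio in doubly targeted cells was higher than in CTRL cells for 11 of the 153, beside 2.55% of all tested genes. It was higher than in hnRNPC-targeted cells for 14 and lower for 2, beside 4.15 and 2.34% of all tested genes. Among 24 mRNAs of double-stranded RNA sensors and their signaling proteins, 0 were called in edgeR's test, beside 6.34% of all tested genes, and the median was 0.27. IFIH1 had 159 and 98.6 CPM in total and 216 and 143 CPM in cytosolic RNA, which overlap (log2 ratio 0.48, standard error 0.23, edgeR adjusted p = 0.0869). Within each replicate number its cytosolic value was the higher one. OAS3, an oligoadenylate synthetase, had a log2 ratio of −0.21, PRKRA, an activator of PKR, 0.79, and STRBP, a double-stranded RNA-binding protein, 0.90.

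Nuclear RNAs were lower unevenly. Of 10 tested nuclear long noncoding RNAs, 4 were lower: KCNQ1OT1 (−2.42, which overlaps KCNQ1), MALAT1, NEAT1, and FTX (−1.10). JPX, a regulator of XIST transcription, had a log2 ratio of 0.65. Of 6 tested small structured RNAs, the Cajal body RNAs SCARNA5 (−4.22), SCARNA7 (−3.41), and SCARNA6 (−3.22) were lower. SCARNA7 lies within KPNA4, and had 55.4 and 42.0 CPM in total and 4.44 and 4.72 CPM in cytosolic RNA. RN7SK, the RNA that holds the elongation factor P-TEFb in the nucleus, had 21487 and 16365 CPM in total and 21943 and 20423 CPM in cytosolic RNA, which overlap (log2 ratio 0.16). Of 30 mRNAs of SR proteins and related genes with detained introns, 2 were lower, near the 5.9% of all tested genes. They were OGT (−1.20), the transferase of O-linked N-acetylglucosamine, and CCNL2 (−1.20), a cyclin of nuclear speckles. OGT had 206 and 206 CPM in total and 89.2 and 90.2 CPM in cytosolic RNA. Of 14 snoRNA host RNAs, 1 was lower, also near that share. This was SNHG3 (−2.27), which overlaps RCC1 and SNORA73B. It had 410.2 and 243 CPM in total and 64.6 and 70.4 CPM in cytosolic RNA. Of 391 tested zinc-finger ZNF mRNAs, 4 were lower, ZNF154 (−1.95) and ZNF331 (−1.40) among them, and the median was 0.08. That is a smaller share than the 5.9% of all tested genes.

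mRNAs of ribosomal, soluble housekeeping, and histone proteins had mostly positive log2 ratios without reaching the fold threshold. The median of all tested genes was 0.24. Under the housekeeping scaling, which was set on the housekeeping mRNAs themselves, the list medians were 0.03, −0.006, and 0.14 in this order. In edgeR's test 0 of 71 ribosomal protein mRNAs were called (median 0.56), beside 6.34% of all tested genes, with RPL12 highest at 0.94 and RPS10 lowest at −0.03. RPL12 had 718 and 631 CPM in total and 1216 and 1372 CPM in cytosolic RNA. All 26 soluble housekeeping mRNAs (median 0.53) and all 17 replication-dependent histone RNAs (median 0.67) had ratios above 0, and 0 of either list were called. PFN1, an actin-binding protein, had the highest ratio of the housekeeping mRNAs (0.87), and the linker histone H1-2 that of the histone RNAs (0.87).

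ECRs are genomic intervals around clusters of editing sites, extended and merged by the authors, and most hold Alu repeats. Their counts were scaled to the gene counts of the library. Of 2470 tested ECRs among 2794, 3 were higher (0.121%) and 413 were lower (16.7%) in cytosolic RNA, with a median log2 ratio of −0.03. Under the housekeeping scaling 0 were higher and 750 were lower. Intronic ECRs differed from those of 3′ UTRs. Of 1283 ECRs with most of their sites in introns, 294 were lower (22.9%) and 1 was higher, with a median of −0.22 (interquartile range −0.92 to 0.23). Of 543 ECRs in 3′ UTRs, 15 were lower (2.76%) and 1 was higher, with a median of 0.25 (−0.04 to 0.48). In the other groups 264 intronic ECRs were lower in CTRL, 145 in ADAR-targeted, and 193 in hnRNPC-targeted cells, where 15.7, 8.95, and 12.1% of all ECRs were lower. Outside annotated genes 44 of 304 were lower, with a median of 0.00.

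Intronic ECRs were mostly below the gene that holds them. Among 1165 intronic ECRs with a tested host gene, 893 (76.7%) had a lower log2 ratio than the host, with a median of −0.23 for the ECRs and 0.20 for the hosts. The median of the ECR minus host differences was −0.19. Of the 266 called lower in this set, 28 had a host gene that was called lower too, where 5.9% of all tested genes were lower. For 3′ UTRs, 224 of 516 ECRs (43.4%) were below their host, and of the 14 called lower there, 11 had a host called lower. The intronic ECR of CELF2, an RNA-binding splicing regulator (chr10:11215885-11217967), had 4.57 and 3.99 CPM in total and 0.418 and 0.466 CPM in cytosolic RNA. Its log2 ratio was −3.27 (standard error 0.38, edgeR adjusted p = 2.18e-06), beside 0.40 for the CELF2 gene. An intronic ECR of HDAC9, a histone deacetylase (chr7:18335272-18337332), had 4.79 and 4.36 CPM in total and 0.551 and 0.436 CPM in cytosolic RNA (−3.21, with 0.54 for the gene). That of HELLS, a chromatin remodeler (chr10:96324762-96328585), had 4.08 and 4.11 CPM in total and 0.518 and 0.391 CPM in cytosolic RNA (−3.17, with 0.02 for the gene). The lowest of all was an intergenic ECR (chr8:43091768-43098489) with 143 and 160 CPM in total and 8.07 and 11.6 CPM in cytosolic RNA (−3.94, standard error 0.37, edgeR adjusted p = 2.83e-07). An ECR of PPIL2 (chr22:22044382-22046507) followed at −3.43, with 1.46 and 1.51 CPM in total and 0.251 and 0.0300 CPM in cytosolic RNA.

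The 3 higher ECRs lay in an intron of RSRC2, an arginine/serine-rich protein (chr12:122997884-122999950), at chr1:150202172-150204299, where no listed site falls, and in the 3′ UTR of RBBP9, a serine hydrolase (chr20:18468048-18470089). The RSRC2 ECR had 42.3 and 31.1 CPM in total and 85.3 and 76.0 CPM in cytosolic RNA (log2 ratio 1.14, standard error 0.18, edgeR adjusted p = 6.27e-05), beside 0.98 for the gene. None of the 3 was called without total RNA replicate 2 (0.93, 0.91, and 0.93 in this order), and 11 ECRs were higher without total RNA replicate 1 and 8 without cytosolic RNA replicate 1.

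A list of ECRs was taken from the first RNA-seq study. In it, 168 of 2528 ECRs (6.65%) were higher in ADAR+hnRNPC- than in ADAR-targeted cells on day 4. The authors report stronger induction of interferon-responsive genes in doubly than in singly targeted cells, so a member need not depend on hnRNPC directly. That study used other gRNAs and a STING-deficient clone. Of 155 tested here, 41 were lower (26.5%) in cytosolic RNA and 0 were higher, with a median log2 ratio of −0.37, beside 16.7% lower and a median of −0.03 for all ECRs. Of the 91 in introns, 27 were lower, beside 22.9% of all intronic ECRs. In CTRL cells 35 of the 155 were lower, with a median of −0.47, in ADAR-targeted cells 19, and in hnRNPC-targeted cells 26. The 6 ECRs with the largest increase in the first study were not called here. The ECR of BRD8, a bromodomain protein (chr5:137507963-137512562), had 5.53 and 5.55 CPM in total and 4.43 and 4.18 CPM in cytosolic RNA (log2 ratio −0.37, standard error 0.29, edgeR adjusted p = 0.303). PPP6C (−0.42), MARS1 (−0.63), RCN3 (−0.79), MX1 (0.42), and a region at chr21:42818756-42821653 (0.26) were the other 5. ECRs in MIGA1 (0.68), a mitochondrial fusion factor, in MYB (0.37), a transcription factor of hematopoietic progenitors, and at PSPH (0.69 and 0.53), of serine synthesis, and TMEM116 (0.31 and 0.27) were not called either. The intronic MYB ECR (chr6:135524457-135531646) had 72.3 and 77.3 CPM in total and 91.6 and 102 CPM in cytosolic RNA.

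Editing was measured as the share of reads with the edited base. Pooled over 19645 ECR sites, 7.15 and 6.31% of the reads were edited in total RNA and 7.31 and 6.63% in cytosolic RNA. Means were 6.73 ± 0.598% and 6.97 ± 0.483% (SD, n = 2), and the fractions overlapped. The difference of 0.244 percentage points had a 2-sided exact permutation p of 0.667, where 2 against 2 libraries cannot go below 0.333. Of 11114 single sites tested, 0 were called in edgeR's test of edited against unedited reads, whereas 595 were higher and 211 lower at an unadjusted p under 0.05. The lowest number of reads in a library had a median of 18 over the sites, which limits what can be seen at a single site.

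Summing the reads of an ECR gave calls. Of 1631 ECRs with at least 50 reads in each library, 77 were edited more (4.72%) and 4 less (0.245%) in cytosolic than in total RNA at an adjusted p of at most 0.05. The count of 77 depended on each of 3 libraries, as it was 26 without cytosolic RNA replicate 1, 48 without cytosolic RNA replicate 2, and 27 without total RNA replicate 2. The count of 4 was 1 without cytosolic RNA replicate 1 and 2 without cytosolic RNA replicate 2. Introns held 62 of the 77. Of 748 intronic ECRs, 62 were edited more (8.29%) and 0 less, and the median level was 6.30% in total and 8.78% in cytosolic RNA. The median difference was 2.26 percentage points, and 591 (79.0%) were above 0. Over all intronic ECRs, 7.48 and 6.57% of reads were edited in total RNA and 9.03 and 8.29% in cytosolic RNA, which do not overlap. Of 495 ECRs in 3′ UTRs, 1 was edited more and 4 less, with a median difference of 0.08 percentage points. Their pooled levels were 6.99 and 6.23% in total and 6.84 and 6.19% in cytosolic RNA, which overlap. A site was used if it passed the filter in any group, cytosolic RNA of doubly targeted cells included, so the choice of sites can favor higher editing there. The ECRs named below were measured over these sites. An alternative chosen after seeing the data kept sites only where they passed in total RNA of CTRL cells. With it, 42 of 1033 ECRs were edited more and 3 less. In introns 34 of 386 ECRs were edited more, with a median difference of 2.61 percentage points.

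**Figure D3:**
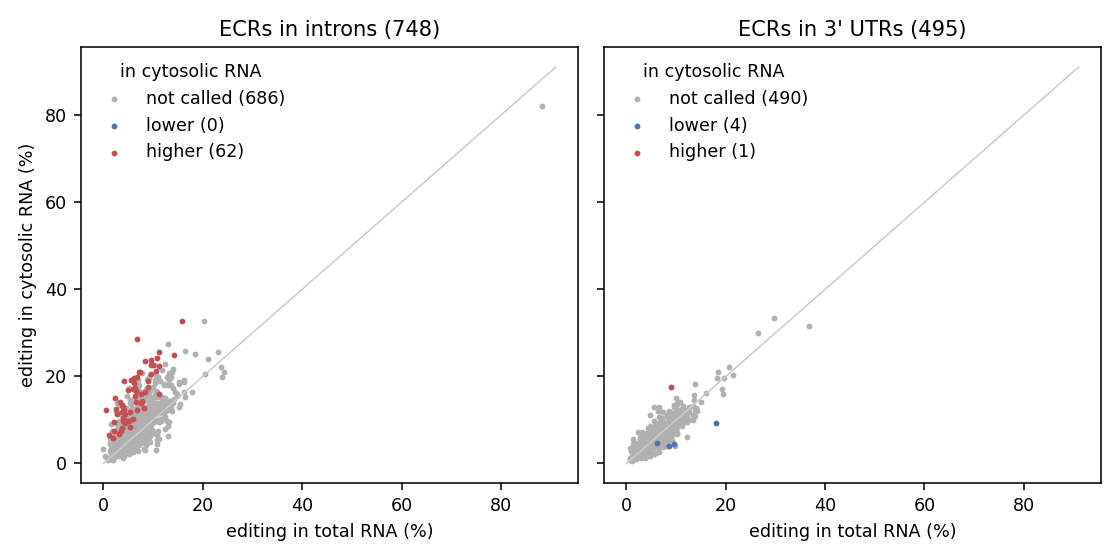
Editing (%) of each ECR in cytosolic against total RNA of doubly targeted cells, as means of 2 libraries, for 748 ECRs in introns and 495 in 3′ UTRs. Each point is 1 ECR, red where edited more and blue where edited less in cytosolic RNA, and the line marks equal editing. In introns 62 points are red and 0 are blue, and in 3′ UTRs 1 is red and 4 are blue.

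Of the ECRs with large changes in editing, picked after the values were seen, 2 are represented by their sites with the most edited reads. Each sequence shows the edited adenosine in capitals with 14 bases on each side on the strand of the RNA (GRCh37).
RAB30-DT exon, chr11:82786432-82786460: ggcgggtgcctgtaAtcccagcgacttgg
WSB1 exon, chr17:25624236-25624264: ggctggagtgcagtAgcgcagtctcagct

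The ECR of MCM5, a subunit of the replicative helicase, was edited at 8.60 and 4.96% in total RNA (93 and 141 reads) and at 33.3 and 23.9% in cytosolic RNA (84 and 67 reads). Its log2 odds ratio was 2.55 (standard error 0.52, edgeR adjusted p = 0.00199). These reads are few, and the 2 fractions did not overlap. RAB30-DT, a divergent noncoding transcript, had 3.27 and 8.33% in total and 19.1 and 23.02% in cytosolic RNA over its ECR (log2 odds ratio 2.05, edgeR adjusted p = 0.00201), while the counts of this ECR had a log2 ratio of −2.16. At its site shown, 2 of 13 and 7 of 33 reads were edited in total RNA and 3 of 6 and 5 of 7 in cytosolic RNA, too few reads for the test of single sites. DLEU2 rose from 12.5 and 19.2% to 34.1 and 31.5%, LRPPRC from 11.4 and 5.46% to 25.7 and 21.5%, and EEF1D from 19.2 and 13.3% to 29.8 and 36.7%. FANCA rose with a log2 odds ratio of 2.44. The ECR of WSB1, part of a ubiquitin ligase, was edited at 0.562 and 0.495% in total RNA (178 and 202 reads) and at 11.7 and 13.0% in cytosolic RNA (128 and 154 reads), a log2 odds ratio of 4.60 (standard error 0.75, edgeR adjusted p = 0.000186). At its site shown, 1 of 19 and 1 of 21 reads were edited in total RNA and 2 of 11 and 11 of 18 in cytosolic RNA (not called, edgeR adjusted p = 0.271).

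All 4 ECRs that were edited less lay in 3′ UTRs. F11R, a junctional adhesion molecule, had 8.68 and 8.45% in total RNA (933 and 911 reads) and 4.76 and 3.08% in cytosolic RNA (798 and 845 reads), a log2 odds ratio of −1.21 (standard error 0.29, edgeR adjusted p = 0.00895). SPN, the leukocyte sialophorin CD43, fell from 6.76 and 5.58% to 4.498 and 5.12%, ICMT from 8.18 and 10.95% to 4.36 and 4.54%, and RSBN1L from 18.7 and 17.5% to 8.24 and 10.2%. Of the ECRs named here with a change in editing, all but WSB1 lost their call when at least 1 of the 4 libraries was left out. The MYB ECR, with 4916 to 7804 reads per library, was at 5.04 and 2.83% in total and 5.43 and 4.16% in cytosolic RNA, which overlap, and was not called (edgeR adjusted p = 0.326).

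The ratio of cytosolic to total RNA in doubly targeted cells was then set against that of the other 3 gRNA groups, by testing the difference of the 2 ratios. Against CTRL cells, 348 genes had a higher ratio in doubly targeted cells (2.55%) and 5 a lower one (0.0367%). The lower count was 2 without total RNA replicate 1 and also 2 without total RNA replicate 2. These 348 genes were lower in cytosolic RNA in the other groups and less so in doubly targeted cells. Their median log2 ratios were −0.45 in doubly targeted, −0.85 in ADAR-targeted, −1.87 in CTRL, and −1.95 in hnRNPC-targeted cells. As the genes were chosen by their difference from CTRL cells, the values of doubly targeted and CTRL cells describe that choice and are no separate evidence. Of the 348, 54 were called lower in doubly targeted, 138 in ADAR-targeted, 331 in CTRL, and 334 in hnRNPC-targeted cells, where 5.9, 6.48, 10.3, and 11% of all tested genes were lower. Among the lists, those of secretory and membrane protein messages held most called differences. Of the lysosomal and granule protein mRNAs, 19 of 26 had a higher ratio than in CTRL cells and 21 than in hnRNPC-targeted cells, and their medians were −0.69 in doubly targeted, −1.07 in ADAR-targeted, −1.90 in CTRL, and −2.08 in hnRNPC-targeted cells. ER chaperone and translocon mRNAs had 9 and 14 of 34 such genes, with medians of −0.51, −0.89, −1.36, and −1.55 in the same order of groups. Of the receptor and transporter mRNAs, 8 of 27 had a higher ratio than in CTRL and 8 than in hnRNPC-targeted cells. In the same order, 2 and 3 of 11 cytokine, 2 and 3 of 58 interferon-stimulated, 1 and 1 of 30 SR protein, and 1 and 1 of 14 snoRNA host RNAs were higher. Of all tested genes, 2.55 and 4.15% were higher in these comparisons. Of 391 ZNF mRNAs, 1 was lower than in CTRL cells, and 8 were lower and 1 higher than in hnRNPC-targeted cells. Of the 71 ribosomal protein mRNAs 0 did so in either direction by edgeR's test. Mitochondrially encoded RNAs, another measure of the fractionation, had medians of −5.79 in doubly targeted, −5.84 in CTRL, −4.41 in ADAR-targeted, and −4.36 in hnRNPC-targeted cells, with 0 called differences. Of the 10 nuclear long noncoding RNAs, 3 had a lower ratio than in hnRNPC-targeted cells, and 0 were called against CTRL or ADAR-targeted cells by edgeR's test. MALAT1 had log2 ratios of −2.33 in doubly targeted, −1.27 in CTRL, −0.72 in ADAR-targeted, and −0.48 in hnRNPC-targeted cells, and its difference from the last was −1.85 (standard error 0.41, edgeR adjusted p = 0.00692). NEAT1 (−1.34) and KCNQ1OT1 (−1.17) were the other 2. Whether the yield of the fractionation takes part in these differences was not tested.

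**Figure D4:**
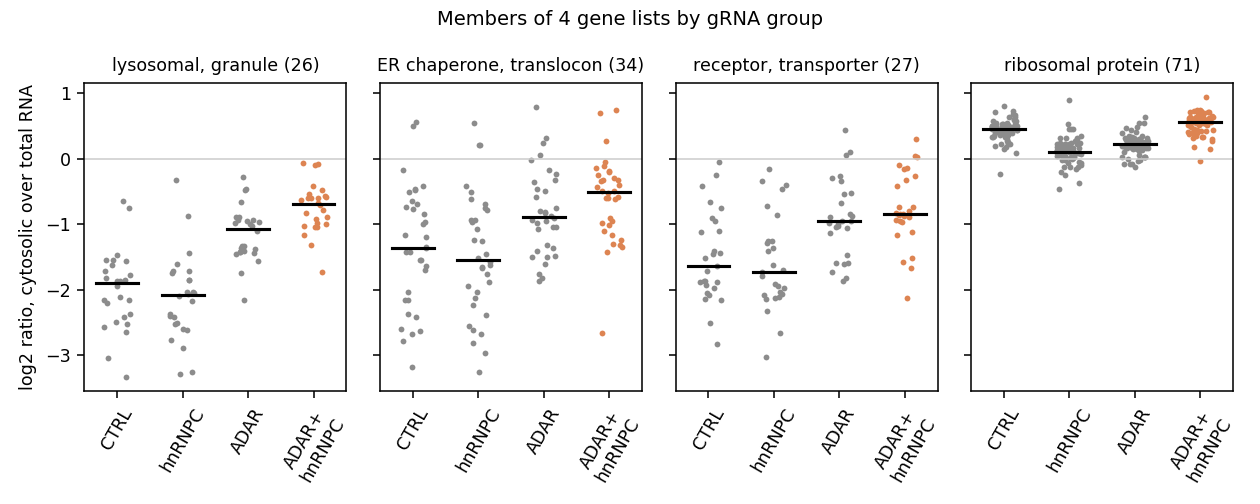
Log2 ratio of cytosolic to total RNA of the tested members of 4 gene lists (number in parentheses) in CTRL, hnRNPC-targeted, ADAR-targeted, and doubly targeted cells (orange). Each point is 1 gene and each bar is a median. Lysosomal and granule protein mRNAs have medians of −1.90, −2.08, −1.07, and −0.69 in this order.

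LGALS3BP, a secreted glycoprotein (chr17:76967320-76976029), had 37.2 and 24.4 CPM in total and 24.4 and 15.6 CPM in cytosolic RNA of doubly targeted cells. Its log2 ratio was −0.63 there, −3.34 in CTRL, −1.26 in ADAR-targeted, and −3.62 in hnRNPC-targeted cells. The difference from CTRL cells was 2.71 (standard error 0.42, edgeR adjusted p = 0.000935). NAPSB, a pseudogene of the aspartic protease napsin that overlaps NR1H2 (chr19:50837134-50848018), had 83.3 and 68.1 CPM in total and 81.9 and 69.4 CPM in cytosolic RNA. Its ratio of 0.00 stood against −2.61 in CTRL cells (difference 2.61, standard error 0.23, edgeR adjusted p = 1.39e-05). TAPBP, the tapasin of the MHC class I loading complex, differed by 2.57, and OS9, a lectin of ER-associated degradation whose gene overlaps AGAP2, by 2.36. AGA, a lysosomal amidase, had a log2 ratio of 0.36 in doubly targeted and −2.50 in hnRNPC-targeted cells (difference 2.85).

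Against hnRNPC-targeted cells, 566 genes had a higher ratio (4.15%) and 319 a lower one (2.34%). The 319 had median log2 ratios of −0.18 in doubly targeted, 0.56 in CTRL, 0.86 in ADAR-targeted, and 1.25 in hnRNPC-targeted cells. Here too the medians of doubly targeted and hnRNPC-targeted cells describe how the genes were chosen. The count of 319 fell to 122 without cytosolic RNA replicate 1, to 206 without cytosolic RNA replicate 2, and to 96 without total RNA replicate 2. POLR2A, the largest subunit of RNA polymerase II (chr17:7387685-7417933), had 149 and 193 CPM in total and 116 and 123 CPM in cytosolic RNA of doubly targeted cells. Its ratio was −0.51 there and 2.15 in hnRNPC-targeted cells (difference −2.66, standard error 0.56, edgeR adjusted p = 0.00527). The transcription factors NFIC (−2.64) and HIVEP3 (−2.62) and the corepressor BCORL1 (−2.64) differed similarly.

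Against ADAR-targeted cells, edgeR's test called 0 genes in either direction, with 1315 higher and 828 lower at an unadjusted p under 0.05, and DESeq2 called 4 and 30. The same test called 0 of 2470 ECRs, with 91 higher and 326 lower at an unadjusted p under 0.05, and DESeq2 called 1 and 42. A missing call does not show that the ratios were alike.

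ECRs differed little from CTRL cells, with 37 higher (1.5%) and 3 lower (0.121%), and more from hnRNPC-targeted cells, with 48 higher (1.94%) and 72 lower (2.91%). Against CTRL cells the higher count was 20 without cytosolic RNA replicate 1, 24 without replicate 2 of it, and 17 without total RNA replicate 2, and the lower count was 0 or 1 without any 1 of the 4 libraries. The ECR of GUSB, the lysosomal beta-glucuronidase (chr7:65437411-65439498), had 13.1 and 11.96 CPM in total and 8.80 and 8.43 CPM in cytosolic RNA, and its ratio of −0.54 stood against −2.47 in CTRL cells (difference 1.92, standard error 0.19, edgeR adjusted p = 5.26e-06). The GUSB gene had a similar ratio of −0.58 in doubly targeted cells. Whether such a difference belongs to the ECR or to the whole host mRNA was not tested. An ECR in the 3′ UTR of PLEKHG2 (chr19:39917204-39919232) had a ratio of −0.98 in doubly targeted and 2.65 in hnRNPC-targeted cells (difference −3.63, standard error 0.73, edgeR adjusted p = 0.00508). The ratio of −0.98 was itself not called. It was 0.59 in CTRL and 2.15 in ADAR-targeted cells, and the differences from these groups were not called. Against hnRNPC-targeted cells the lower count was 11 without cytosolic RNA replicate 1, 39 without cytosolic RNA replicate 2, and 9 without total RNA replicate 2. Higher editing of intronic ECRs in cytosolic RNA was also called in the other groups, least often in ADAR-targeted cells. It was called for 149 of 748 in CTRL, 14 in ADAR-targeted, and 94 in hnRNPC-targeted cells. Over all 1631 ECRs the counts were 182, 18, and 111 in this order. Tests of the difference between doubly targeted cells and these groups, added after seeing the data, called 1 of 1631 ECRs against CTRL cells (HELB, 0.0613%), 1 against hnRNPC-targeted cells (WSB1, 0.0613%), and 0 against ADAR-targeted cells (0.0%), with 112 at an unadjusted p under 0.05 in the last.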

How the data were processed

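All values used were counts that the authors deposited without normalization. Per the methods of the study and the submitters' processing notes, reads of ribosomal RNA-depleted stranded libraries were aligned to GRCh37 (STAR 2.5.4a), and uniquely mapped reads were counted over the exons of genes (featureCounts) and over ECRs. For each editing site, the authors deposited the counts of edited and of all reads. The strand setting of the gene counting is not given in the sources used here. Groups came from the labels, and 0 columns were without a sample.

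Genes with an average log2 CPM of at least 0.5 (ECRs 4.5) were tested in R 4.3.3 with edgeR 4.0.16 (quasi-likelihood test, TMM, Benjamini-Hochberg adjustment over all features). All 18 libraries of the second study shared 1 model with 1 coefficient per group. Editing was tested on edited and unedited counts in 16 libraries (edgeR). Single sites needed 10 reads in each of the 4 libraries and 5% editing over them together. ECR sums used sites with 10 reads and 10% editing in both libraries of at least 1 group, and an ECR needed 50 reads per library. The code was tested on simulated data. CPM values of single libraries are counts scaled by the effective library size. DESeq2 1.42.0, limma 3.58.1 (voom), other scalings, filters, a replicate block, and the omission of each library were alternatives. Symbols came from an annotation lifted to GRCh37 (55538 of 57820 genes matched). Of 318767 sites, 311532 lay at an A of that genome and 7235 at a base it lacks.

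Replicates of a group were not copies of each other (smallest chi-square per gene 13.1). Named were 7 fixed genes, the 6 highest and 6 lowest called protein-coding genes (average log2 CPM 3 or more), 2 at each end of each list, 4 at each end of each difference, and corresponding ECRs. Members and lists were chosen with earlier results of these data known. Some members and sequences are not reported here.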

Additional observations from a re-analysis of the deposited data

Results flagged for a closer look

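Each result here is a difference between gRNA groups in the ratio of cytosolic to total RNA, found by a test of the difference itself. Against CTRL cells, 348 genes and 37 ECRs had a higher ratio in doubly targeted cells, and 5 genes and 3 ECRs a lower one. Against hnRNPC-targeted cells, 566 genes and 48 ECRs were higher and 319 genes and 72 ECRs were lower. All of these comparisons share the 4 libraries of doubly targeted cells.

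Among genes, the differences (log2) from CTRL and from hnRNPC-targeted cells were 2.71 and 2.99 for LGALS3BP, 2.61 and 3.25 for NAPSB, and 2.36 and 2.56 for OS9. NAPSB overlaps NR1H2 and OS9 overlaps AGAP2, so their counts are uncertain. TAPBP differed from CTRL cells by 2.57. From hnRNPC-targeted cells, AGA differed by 2.85, POLR2A by −2.66, NFIC by −2.64, BCORL1 by −2.64, and HIVEP3 by −2.62.

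Among ECRs, those of SCPEP1 (2.09 and 1.85) and APOL1 (2.05 and 1.85) differed from CTRL and hnRNPC-targeted cells. From CTRL cells, GUSB differed by 1.92, NCKIPSD by 1.87, a region at chr9:69709949-69712095 by −2.23, IST1 by −1.46, and ANKRD18A by −1.04. Some of these ECRs had ratios near those of their host genes in doubly targeted cells. SCPEP1 had −0.80 for the ECR and −0.82 for the gene, and APOL1 −0.50 and −0.55. The APOL1 gene itself differed from CTRL cells by 1.82. IST1 had −1.57 for the ECR and 0.05 for the gene. From hnRNPC-targeted cells, SLC3A2 and QPCTL each differed by 2.03, PLEKHG2 by −3.63, SOGA1 by −3.01, LINC02169 by −2.12, and a region at chr2:92312197-92314267 by −2.05. In editing, the log2 odds ratio of the HELB ECR differed from CTRL cells by 2.39 and that of WSB1 from hnRNPC-targeted cells by 4.65.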

How the results depend on the processing

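With 18 reads in the shallowest library at the median site, the depth limits single sites. The genes called higher and lower numbered 49 and 852 with DESeq2, and 850 of the 865 calls were shared. Under housekeeping scaling they were 1 and 2031, and without a low-count filter 183 and 2991. Leaving out 1 library gave 59 to 206 higher and 793 to 849 lower. ECRs called higher were 5 with TMM on ECR totals, 0 with housekeeping scaling (750 lower), and 5 without a filter. Leaving out 1 library gave 2 to 11 higher and 370 to 451 lower ECRs.

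For differences from CTRL cells, the lower genes were 10 with DESeq2 and 87 without a filter, and 2 to 4 with a library left out (higher 262 to 357). The lower ECRs were 9 with DESeq2 and 0 to 1 with a library left out (higher 17 to 32). From ADAR-targeted cells, the higher and lower genes were 4 and 30 with DESeq2 and 25 and 265 without a filter. The ECRs were 1 and 42 with DESeq2, and 4 were lower without a filter. From hnRNPC-targeted cells, the lower genes were 671 without a filter and 96 to 325 with a library left out (higher 408 to 616), and the lower ECRs 9 to 68 (higher 33 to 52). ECRs edited less were 7 at 100 reads, and those edited more were 42 with sites that passed in CTRL total RNA. With a library left out, 26 to 70 were edited more and 1 to 3 less. The cause of these shifts was not tested.

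No label ties replicate numbers to an experiment, so the numbers were not used as pairs. Deviations of same-numbered libraries correlated at 0.283 between the 2 fractions of doubly targeted cells. Between the fractions of the other groups the values were 0.185 (CTRL), 0.191 (ADAR-targeted), and 0.313 (hnRNPC-targeted). Over all pairs of groups they ran from −0.337 to 0.445. The libraries may therefore be paired, and the main fit ignores this. With a replicate block, 62 genes were higher and 808 lower, 87 ECRs were edited more and 6 less, and 9 genes and 5 ECRs were lower in the difference from CTRL and 7 ECRs in that from ADAR-targeted cells.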
